A study of Homo sapiens with 22 samples.

Results

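The genes described here are 9 components of the interferon signalling cascade that were listed by name: the receptor genes IFNAR1, IFNAR2, IFNGR1 and IFNGR2, the kinase genes JAK1, JAK2 and TYK2, and the transcription factor genes STAT2 and STAT3. They are 9 of 64728 gene names found in at least 1 of the 4 expression tables of the study, and all 9 were present and tested in each table. The list gives names and sets no threshold on any value. RNA was sequenced from HN-6, a cell line of human head and neck squamous carcinoma, in 22 libraries that form 8 groups. In the knockout comparison, 3 libraries of the SMYD3 KO clone 5-3 stood against 3 of parental HN-6 cells. In the knockdown comparisons, 3 libraries of HN-6 cells given the siRNA si1SMYD3 stood against 3 given the control siRNA siNC, 2 libraries given the SMYD3-targeting antisense oligonucleotide (ASO) 081 stood against 2 given phosphate-buffered saline (PBS), and 3 given an siRNA to UHRF1 stood against 3 given siNC. siRNA and ASO exposure lasted 72 h. Every group, controls included, was also exposed for 24 h to human interferon-β (1000 U/ml). The comparisons therefore describe interferon-treated cells and there is no group without interferon. The knockout is 1 clone and SMYD3 was targeted by 1 siRNA sequence and 1 ASO, so clone or sequence cannot be told apart from loss of SMYD3. The ASO was set against PBS and not against a control oligonucleotide. Exposure to an oligonucleotide therefore cannot be told apart from loss of SMYD3 there. No control library is shared between the 4 comparisons.

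Type I interferons such as interferon-β bind a receptor made of IFNAR1 and IFNAR2, which carry the kinases TYK2 and JAK1 on their inner tails. Interferon-γ binds IFNGR1 and IFNGR2, which carry JAK1 and JAK2. The activated kinases phosphorylate STAT proteins. STAT2 joins a partner STAT and IRF9 in the factor ISGF3, which binds interferon-stimulated response elements, and STAT3 is best known as the effector of interleukin-6 family cytokines, although type I interferons activate it too. SMYD3 is a lysine methyltransferase, and UHRF1 is a chromatin protein that guides maintenance of DNA methylation. The study's title concerns repression of the tumour cells' own interferon response by SMYD3, and the question asked of these genes is whether the RNA for the receiving end of that response changed with it.

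On GRCh38, in GENCODE release 29, the genes on the plus strand are IFNAR1 at chr21:33324477-33359862, IFNAR2 at chr21:33229901-33265675, IFNGR2 at chr21:33402896-33479348 and JAK2 at chr9:4984390-5128183. Those on the minus strand are IFNGR1 at chr6:137197484-137219449, JAK1 at chr1:64833229-64966504, TYK2 at chr19:10350529-10380676, STAT2 at chr12:56341597-56360155 and STAT3 at chr17:42313324-42388568. Values were counted over whole genes, so isoforms are not told apart.

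SMYD3 RNA was lower in all libraries in which it was targeted. It averaged 93.6 ± 18.4 normalized counts in the knockout clone and 322 ± 18.3 in parental cells, 2.85 ± 0.207 CPM (counts scaled to a common library total) with si1SMYD3 and 15.1 ± 1.72 CPM with siNC (SD, n = 3 each), and 3.73 ± 0.639 CPM with the ASO and 21.5 ± 0.686 CPM with PBS (SD, n = 2 each). Where the clone's edit lies is not stated in the sources used here, so reads left in the clone say nothing of the protein. UHRF1 averaged 2.22 ± 0.42 CPM with its siRNA and 64.5 ± 1.73 CPM with siNC, and the same siRNA libraries held less SMYD3 as well, at 8.40 ± 0.488 CPM against 12.5 ± 1.06 CPM (SD, n = 3 each). The shallowest and deepest libraries of the knockout table held 24783605 and 47702859 reads in genes. Those limits were 32441991 and 54121262 for si1SMYD3 and its control, 30792923 and 32045158 for the ASO and PBS, and 57588142 and 62921144 for the UHRF1 siRNA and its control. Of 11 squamous epithelial markers, 10 or 11 reached 1 CPM in every group, and their sum was higher in depleted cells in each comparison, at 3800 to 3910 CPM in the clone against 2090 to 2130 CPM in parental cells, 2690 to 3000 CPM with si1SMYD3 against 2290 to 2490 CPM with siNC, 3670 to 3760 CPM with the ASO against 3410 to 3500 CPM with PBS, and 7840 to 8250 CPM with the UHRF1 siRNA against 6130 to 6390 CPM with siNC. Marker CPM are scaled by library totals alone. The leukocyte markers summed to between 5.87 and 23.1 CPM per library. Mitochondrial genes took 4.82% to 4.88% of reads in the knockout clone and 14.9% to 15.7% in parental cells, and the markers of other cell types moved in both directions. Fibroblast markers summed to 114 to 134 CPM with si1SMYD3 against 56.2 to 61.2 CPM with siNC, but to 2.77 to 3.24 CPM in the clone against 15.4 to 16.5 CPM in parental cells, 32.2 to 37.4 CPM with the ASO against 44.7 to 46.0 CPM with PBS, and 24.2 to 25.8 CPM with the UHRF1 siRNA against 36.9 to 38.7 CPM with siNC. Endothelial markers summed to at most 23.4 CPM with the UHRF1 siRNA, without overlap, against 8.26 to 9.16 CPM with siNC, but to 1.03 to 1.78 CPM in the clone against 4.8 to 5.89 CPM in parental cells, and 6.65 to 7.24 CPM with si1SMYD3 against 12.9 to 15.6 CPM with siNC. With the ASO they summed to 8.9 to 9.13 CPM, against 9.08 to 9.54 CPM with PBS. The part of these values in the results was not tested. In bulk RNA, fewer cells that express a gene and less RNA per cell cannot be told apart.

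Each fold change is given as log2, depleted over control cells, with its standard error (SE), and a gene is called where the p-value adjusted over all genes tested is below 0.05. In the knockout clone 7 of the 9 genes were higher and 2 were lower, where 84.6% of all genes tested were called. With si1SMYD3 5 were higher and 0 lower, where 48.6% of genes were called. With the ASO 3 were higher and 0 lower, where 21.7% were called, and with the UHRF1 siRNA all 9 were higher, where 64.7% were called. By direction, higher calls made up 42.1%, 24.2%, 11.3% and 32.0% of the genes tested in the knockout, si1SMYD3, ASO and UHRF1 comparisons, and lower calls 42.5%, 24.4%, 10.3% and 32.7%. The median log2 fold change of the 9 genes was 0.64, 0.40, 0.05 and 0.55 in that order, and that of all genes lay between -0.02 and 0.00. The median absolute change of the 9 genes was 0.67 in the clone, where all genes had 0.74, 0.40 with si1SMYD3 against 0.31, 0.17 with the ASO against 0.17, and 0.55 with the UHRF1 siRNA against 0.45, so their changes were of the size of other genes' changes. Depleted and control libraries did not overlap for 9, 5, 6 and 9 of the 9 genes in the same order, where 85.8%, 56.8%, 61.7% and 68.1% of all genes did not overlap.

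**Figure D1:**
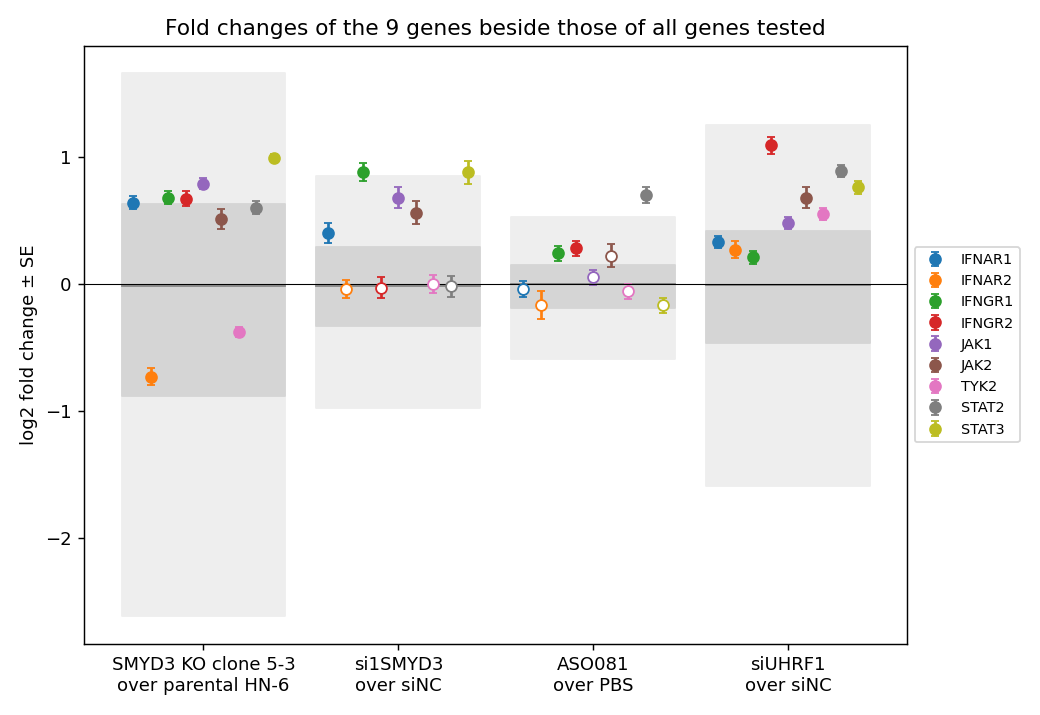
Log2 fold change (y axis, points with bars of 1 SE) of each of the 9 genes in the 4 comparisons (x axis), with filled points for genes called at an adjusted p below 0.05 and open points for the others. Grey bands behind the points span the middle 50% (dark) and the middle 90% (light) of all genes tested, so IFNGR1 and STAT3 with si1SMYD3 and STAT2 with the ASO stand above the light band, and IFNAR2 and TYK2 stand below 0 in the knockout clone.

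In the fits as described, IFNGR1 alone was called in all 4 comparisons, and it was higher in each, but its ASO call ended without PBS replicate 2 and with library totals alone, and with a replicate block JAK2 was called with the ASO too (adjusted p = 0.0418). IFNAR1, IFNGR2, JAK1, JAK2, STAT2 and STAT3 were called higher in 3 comparisons and lower in none. TYK2 and IFNAR2 were called in 2 each, lower in the knockout clone and higher with the UHRF1 siRNA. The split of all called genes moved with the scaling of the libraries. In the knockout table, scaling by the upper quartile moved the median of all genes by -0.27 and the split of called genes to 5387 higher and 8997 lower, against 7136 and 7210 on the deposited scale, and the 9 calls were the same. The sizes were not the same. Rises became smaller, as for JAK2 (0.51 to 0.24) and STAT2 (0.60 to 0.33). The falls of IFNAR2 (-0.73 to -1.0) and TYK2 (-0.38 to -0.65) became larger. Scaling by library totals alone moved the split to 3114 higher and 6448 lower with si1SMYD3, against 4584 and 4630, and to 1338 and 2999 with the ASO, against 2068 and 1880, with the median of all genes moved by -0.13 in the si1SMYD3 table and the calls of the 9 genes there the same. In the ASO table library totals alone ended the call of IFNGR1 (adjusted p = 0.0562) and gave a lower call for STAT3 (adjusted p = 0.00572).

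Promoter sequence was looked up for all 9 genes, and RefSeq's table on GRCh38.p14 held 15 stretches for 8 of them, all but IFNAR2. The 4 genes below have 1 annotated start each and include the STAT genes that the 3 SMYD3 depletions moved differently, the receptor gene that moved most with the UHRF1 siRNA, and a kinase gene that fell in the knockout clone and rose with the UHRF1 siRNA. Each line gives the 250 bases before the start, read 5′ to 3′ on the gene's strand, with capitals for CCCTCC, a short element described for SMYD3 binding, or its reverse complement.
IFNGR2, chr21:33403163-33403412, plus strand: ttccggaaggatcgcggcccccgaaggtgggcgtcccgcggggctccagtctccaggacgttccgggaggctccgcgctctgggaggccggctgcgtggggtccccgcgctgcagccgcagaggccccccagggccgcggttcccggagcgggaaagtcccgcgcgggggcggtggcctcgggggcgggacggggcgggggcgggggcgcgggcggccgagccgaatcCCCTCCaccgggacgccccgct
TYK2, chr19:10380573-10380822, minus strand: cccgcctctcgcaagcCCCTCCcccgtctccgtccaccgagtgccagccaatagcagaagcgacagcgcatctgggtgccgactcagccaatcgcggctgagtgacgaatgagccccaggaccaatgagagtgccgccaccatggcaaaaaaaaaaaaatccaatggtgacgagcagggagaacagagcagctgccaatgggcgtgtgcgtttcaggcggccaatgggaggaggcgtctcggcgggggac
STAT2, chr12:56360108-56360357, minus strand: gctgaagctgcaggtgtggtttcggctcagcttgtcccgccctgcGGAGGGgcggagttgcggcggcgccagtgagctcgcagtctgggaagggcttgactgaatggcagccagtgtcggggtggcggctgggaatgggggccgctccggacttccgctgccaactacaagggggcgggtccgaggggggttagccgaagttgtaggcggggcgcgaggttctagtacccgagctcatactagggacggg
STAT3, chr17:42388443-42388692, minus strand: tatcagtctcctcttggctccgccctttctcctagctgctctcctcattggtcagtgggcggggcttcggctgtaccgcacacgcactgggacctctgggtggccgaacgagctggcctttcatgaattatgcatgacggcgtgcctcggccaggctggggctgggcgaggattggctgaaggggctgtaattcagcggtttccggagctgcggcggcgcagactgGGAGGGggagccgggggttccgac

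Each of these 4 stretches held CCCTCC once, counting both strands, and so did at least 1 stretch of IFNAR1, IFNGR1 and JAK1, whereas none of the 4 JAK2 stretches did. The same letters were present in 42.2% of all 35116 promoter stretches of this length, so a match is common. That share is per stretch, whereas some of these genes have more than 1 stretch. The genes with a match are therefore not to be set against it. The gamma-activated site TTCNNNGAA and the core of the interferon-stimulated response element (GAAA, any 2 bases, GAAA) were searched on both strands. Neither was in any of the 15 stretches of these genes, where 6.57% and 3.02% of all stretches held them. At shares this low, 15 stretches without a match are not unusual. CG, the letters that UHRF1-dependent methylation acts on, occurred 37 times in the IFNGR2 stretch, 21 times in that of STAT2, 19 times in that of TYK2 and 18 times in that of STAT3, where the median over all stretches was 11. These counts describe the letters in the window and say nothing of binding or methylation, which the RNA tables do not measure.

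IFNAR1, the subunit of the type I receptor that carries TYK2, rose in the knockout clone, with si1SMYD3 and with the UHRF1 siRNA. It had 1415, 1553 and 1417 normalized counts in the clone, against 920.5, 931 and 966 in parental cells, a log2 fold change of 0.64 ± 0.05 (limma, adjusted p = 2.23e-08). With si1SMYD3 it had 76.1, 81.5 and 78.7 CPM, against 65.7, 59.1 and 54.4 CPM with siNC (0.40 ± 0.08, edgeR, adjusted p = 0.000877). The lowest depleted library stood above the highest control library in both tables. With the ASO it had 41.8 and 44.1 CPM, against 44.3 and 43.8 CPM with PBS, and the libraries overlapped (-0.04 ± 0.06, edgeR, adjusted p = 0.711). With the UHRF1 siRNA it had 80.5, 84.0 and 82.3 CPM, against 64.1, 63.3 and 68.6 CPM with siNC, again without overlap (0.33 ± 0.05, edgeR, adjusted p = 1.3e-07).

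IFNAR2, the subunit that carries JAK1, did not follow its partner. It fell in the knockout clone, with 481, 478 and 543 normalized counts, against 830.0, 858 and 797 in parental cells (-0.73 ± 0.07, limma, adjusted p = 6.92e-08), and the highest clone library stood below the lowest parental library. The si1SMYD3 libraries had 34.1, 34.5 and 33.2 CPM, against 34.5, 34.2 and 35.7 CPM with siNC (-0.04 ± 0.07, edgeR, adjusted p = 0.702). ASO libraries had 12.4 and 12.2 CPM, against 15.3 and 12.3 CPM with PBS (-0.17 ± 0.11, edgeR, adjusted p = 0.302). In neither knockdown did the difference pass the test. It rose with the UHRF1 siRNA, to 21.0, 21.1 and 20.6 CPM, against 16.5, 17.6 and 17.7 CPM with siNC (0.27 ± 0.07, edgeR, adjusted p = 0.000681). IFNAR1 and IFNAR2 lie close together on chromosome 21, with IL10RB between them, so the opposite changes in the clone came from the same region. IL10RB was also lower in the clone (-0.23 ± 0.06, limma, adjusted p = 0.00317). IFNAR2 shares its span with AP000295.1, a gene model that also covers IL10RB. Reads in IL10RB, the neighbour that encodes a subunit of the interferon-λ and interleukin-10 receptors, numbered 38 to 54 per library in the ASO table and 118 to 170 in the UHRF1 table, but 1799 to 3233 in the si1SMYD3 table and 572 to 1018 in the knockout table. The counting rule for such overlaps is not stated in the sources used here, so the level of IFNAR2 should not be compared across tables.

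The ratio of IFNAR1 to IFNAR2, each per gene length, showed the split within single libraries, where scaling between libraries has no effect. It was 1.97, 2.18 and 1.75 in the knockout clone, against 0.744, 0.728 and 0.812 in parental cells. With si1SMYD3 it lay between 1.5 and 1.59, against 1.02 to 1.28 with siNC. Neither of these pairs of groups overlapped. The ASO libraries (2.27 and 2.43) overlapped the PBS libraries (1.95 and 2.39), and the UHRF1 siRNA libraries (2.57 to 2.68) overlapped their siNC libraries (2.41 to 2.60).

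**Figure D2:**
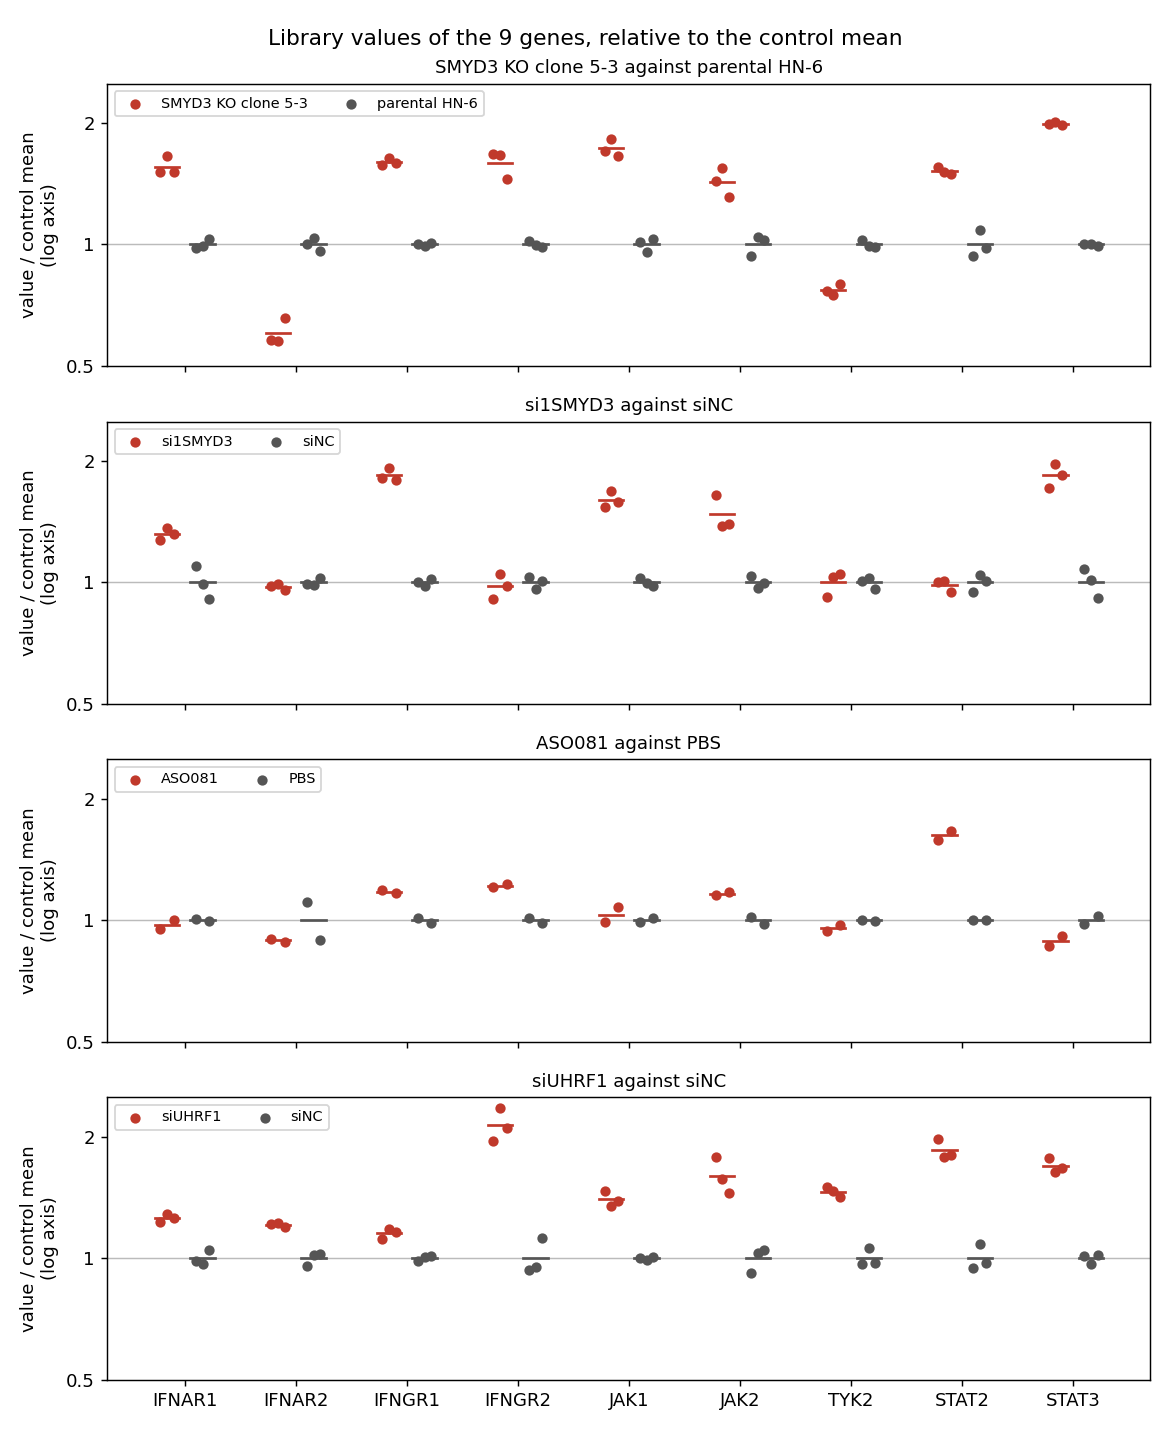
Value of each of the 9 genes in each library, divided by the mean of that comparison's control libraries (y axis, log scale), in 4 panels for the 4 comparisons, with depleted cells in red left of controls in grey and short lines at group means. All 9 genes separate in the top and bottom panels, and IFNAR2 and TYK2 lie below their controls in the top panel.

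Both subunits of the interferon-γ receptor rose in the knockout clone. IFNGR1, the ligand-binding subunit, had 1384, 1444 and 1401 normalized counts in the clone, against 883, 870.4 and 888 in parental cells (0.68 ± 0.05, limma, adjusted p = 3.35e-09). With si1SMYD3 it had 171, 182 and 169.7 CPM, against 94.9, 92.4 and 96.5 CPM with siNC (0.88 ± 0.07, edgeR, adjusted p = 2.41e-07), a change larger in size than those of 89.0% of the genes tested there. No depleted library reached down to a control library in either table. With the ASO it had 51.4 and 50.4 CPM, against 43.8 and 42.6 CPM with PBS (0.24 ± 0.06, edgeR, adjusted p = 0.0128), a call that ended when PBS replicate 2 was left out (adjusted p = 0.0605) and when library totals alone scaled the counts (adjusted p = 0.0562). The UHRF1 siRNA gave 173, 183 and 180.0 CPM, against 152, 156 and 157 CPM with siNC (0.21 ± 0.05, edgeR, adjusted p = 0.000168), the smallest of its called changes.

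IFNGR2, the subunit that carries JAK2, rose in the knockout clone to 1544, 1536 and 1339.9 normalized counts, against 944, 921 and 909 in parental cells (0.67 ± 0.06, limma, adjusted p = 4.44e-08). It did not pass the test with si1SMYD3, where it had 96.1, 110.5 and 103 CPM, against 109, 102 and 106 CPM with siNC (-0.03 ± 0.08, edgeR, adjusted p = 0.77). The si1SMYD3 libraries spanned the control values. With the ASO it had 58.0 and 59.1 CPM, against 48.8 and 47.4 CPM with PBS (0.28 ± 0.06, edgeR, adjusted p = 0.00387). The UHRF1 siRNA gave the largest change among the 9 genes in any comparison, 54.9, 66.3 and 59.3 CPM, against 26.3, 26.7 and 31.5 CPM with siNC (1.09 ± 0.07, edgeR, adjusted p = 8.61e-19). That is 2.13 times the control mean, and 94.5% of the 199 chromosome 21 genes tested lay below it. The 3 siNC libraries of the UHRF1 table held 26.3 to 31.5 CPM of IFNGR2, and those of the si1SMYD3 table held 102 to 109 CPM. Both sets had the same control siRNA label, so levels of this gene differ between the tables before any depletion is considered. IFNGR2 overlaps TMEM50B on the other strand, and whether reads were counted by strand is not stated in the sources used here.

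The ratio of IFNGR1 to IFNGR2 per length was between 1.48 and 1.61 with si1SMYD3, against 0.789 to 0.823 with siNC, and between 2.5 and 2.85 with the UHRF1 siRNA, against 4.50 to 5.25 with siNC. In the knockout clone it was 0.809 to 0.944, against 0.844 to 0.882 in parental cells, so both subunits moved together there. With the ASO it was 0.770 and 0.800, against 0.811 and 0.813 with PBS.

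**Figure D3:**
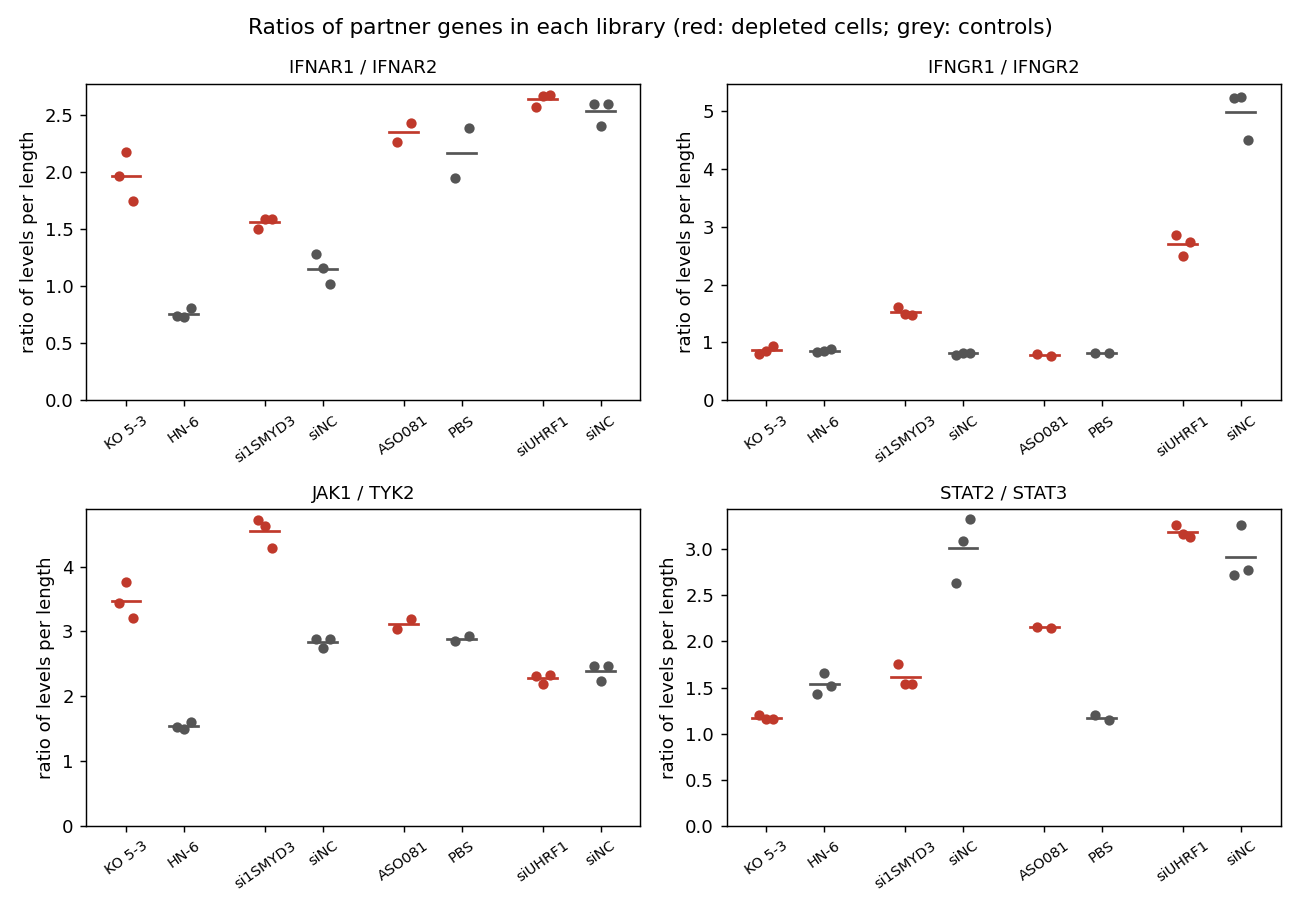
Ratio of the levels per length of 4 pairs of partner genes in each library (y axis), with depleted cells in red left of their controls in grey and lines at group means (x axis, 8 groups). The IFNAR1 to IFNAR2 and JAK1 to TYK2 ratios are higher in the knockout clone than in parental cells, and the STAT2 to STAT3 ratio is lower with si1SMYD3 and higher with the ASO than in their controls.

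JAK1, the kinase that both interferon receptors use, rose in 3 of the 4 comparisons. In the knockout clone it had 5426, 5820.3 and 5272 normalized counts, against 3222, 3058 and 3279 in parental cells (0.79 ± 0.04, limma, adjusted p = 1.87e-10). With si1SMYD3 it had 352, 386 and 364 CPM, against 236, 228 and 225 CPM with siNC (0.68 ± 0.08, edgeR, adjusted p = 5.32e-06). The UHRF1 siRNA gave 244, 225 and 231 CPM, against 167, 165 and 168 CPM with siNC (0.48 ± 0.05, edgeR, adjusted p = 7.35e-13). Depleted and control libraries were apart in all 3. The ASO libraries, at 196 and 213 CPM, overlapped the PBS libraries, at 196 and 200.4 CPM (0.05 ± 0.06, edgeR, adjusted p = 0.633). JAK1 shares part of its span with RAVER2 on the other strand.

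JAK2, the kinase on IFNGR2, was the least abundant of the 9 genes per length in every group. It rose in the knockout clone, with 453, 489.6 and 413 normalized counts, against 295.099, 329 and 324 in parental cells (0.51 ± 0.08, limma, adjusted p = 3.69e-05). The 537 chromosome 9 genes tested had a median of 0.53 in the same comparison, so JAK2 moved as much as its chromosome, with 48.8% of those genes below it. With si1SMYD3 it had 20.2, 16.9 and 17.2 CPM, against 12.7, 11.9 and 12.3 CPM with siNC (0.56 ± 0.09, edgeR, adjusted p = 0.000184), while chromosome 9 as a whole had a median of -0.03. With the UHRF1 siRNA it had 20.8, 18.4 and 16.9 CPM, against 10.7, 12.04 and 12.3 CPM with siNC (0.68 ± 0.08, edgeR, adjusted p = 3.37e-10). None of these groups overlapped. The ASO libraries, at 12.5 and 12.8 CPM, stood above the PBS libraries, at 11.1 and 10.6 CPM, but the difference did not pass the test over all genes (0.22 ± 0.09, edgeR, adjusted p = 0.112).

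TYK2, the kinase on IFNAR1, was the other gene that fell in the knockout clone, to 1681, 1644 and 1754 normalized counts, against 2252, 2183 and 2162 in parental cells (-0.38 ± 0.04, limma, adjusted p = 1.16e-06). The si1SMYD3 mean of 86.2 CPM equalled the siNC mean of 86.2 CPM to 3 digits, with libraries at 79.4, 88.7 and 90.4 CPM against 86.9, 88.5 and 83.2 CPM (0.00 ± 0.07, edgeR, adjusted p = 0.997). Both ASO libraries, at 68.6 and 71.1 CPM, lay below both PBS libraries, at 73.2 and 72.8 CPM, and the difference did not pass the test (-0.06 ± 0.06, edgeR, adjusted p = 0.454). It rose with the UHRF1 siRNA to 112, 109 and 106 CPM, against 72.1, 79.0 and 72.7 CPM with siNC (0.55 ± 0.05, edgeR, adjusted p = 8.67e-14). The ratio of JAK1 to TYK2 per length was 3.20 to 3.77 in the knockout clone, against 1.49 to 1.61 in parental cells, and 4.29 to 4.72 with si1SMYD3, against 2.74 to 2.89 with siNC. ASO libraries had ratios of 3.04 and 3.19, against 2.85 and 2.93 with PBS. With the UHRF1 siRNA it was 2.19 to 2.33, against 2.23 to 2.47 with siNC, where both kinase genes had risen.

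STAT2, the subunit of ISGF3 that mainly carries its activation function and itself an interferon-induced gene, separated the 2 transient SMYD3 depletions. With the ASO it rose in both libraries, to 482 and 505 CPM, against 305 and 305 CPM with PBS (0.70 ± 0.06, edgeR, adjusted p = 3.38e-06), a larger change than in 93.9% of the genes tested. With si1SMYD3 it had 773, 778 and 728 CPM, against 729, 806 and 779 CPM with siNC, and the groups overlapped (-0.02 ± 0.08, edgeR, adjusted p = 0.852). The knockout clone had 8962, 8709 and 8632 normalized counts, against 5398, 6276 and 5659 in parental cells (0.60 ± 0.05, limma, adjusted p = 1.04e-08). The UHRF1 siRNA gave 889.9, 800.1 and 812 CPM, against 426, 488 and 437 CPM with siNC (0.89 ± 0.05, edgeR, adjusted p = 1.19e-20). In these 3 comparisons every depleted library exceeded every control library.

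STAT3 separated the SMYD3 depletions in another way, high in the clone and with si1SMYD3 and not with the ASO. It had the largest change of the 9 genes in the knockout clone, with 10626, 10720.2 and 10563 normalized counts, against 5361, 5363 and 5301 in parental cells (0.99 ± 0.03, limma, adjusted p = 2.66e-13), or 1.99 times the parental mean. With si1SMYD3 it had 627, 717 and 673 CPM, against 394, 370.2 and 333 CPM with siNC (0.88 ± 0.09, edgeR, adjusted p = 2.18e-06). The depleted and control libraries did not overlap in either table. With the ASO it was lower in both libraries, at 317 and 336 CPM, against 361 and 377 CPM with PBS, and narrowly missed the threshold (-0.17 ± 0.06, edgeR, adjusted p = 0.0501). It was called lower under upper quartile scaling (adjusted p = 0.0277), library totals alone (0.00572), no filter on low counts (0.0335) and without ASO081 replicate 2 (0.0212). With the UHRF1 siRNA it had 389, 359.6 and 368 CPM, against 223, 213 and 224 CPM with siNC (0.76 ± 0.05, edgeR, adjusted p = 9.01e-20). The ratio of STAT2 to STAT3 per length was 1.16 to 1.20 in the knockout clone, against 1.43 to 1.66 in parental cells, 1.54 to 1.75 with si1SMYD3, against 2.63 to 3.32 with siNC, and 2.14 and 2.16 with the ASO, against 1.15 and 1.20 with PBS. With the UHRF1 siRNA it was 3.13 to 3.26, against 2.72 to 3.26 with siNC.

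Whether the 3 SMYD3 depletions differed was tested gene by gene as a difference between log2 fold changes, and the UHRF1 siRNA was set against each of them in the same way. The si1SMYD3 and ASO effects differed for 6 of the 9 genes, where 32.0% of all genes differed. Of these, 4 were higher with si1SMYD3 and 2 lower, where 15.5% of all genes were higher and 16.6% lower. STAT3 had the widest gap, 1.05 ± 0.11 higher with si1SMYD3 (SE, edgeR, adjusted p = 8.29e-09), followed by STAT2, whose effect was -0.72 ± 0.11 relative to the ASO (adjusted p = 5.44e-06). The effects on IFNGR1, JAK1 and IFNAR1 were higher with si1SMYD3, by 0.65 ± 0.09, 0.63 ± 0.09 and 0.44 ± 0.10. The difference for IFNGR2, -0.31 ± 0.12, was called in the full set (adjusted p = 0.0392) and ended without any 1 of the 4 libraries of the ASO table, without si1SMYD3 replicate 1 or 3, and without siNC replicate 1, with adjusted p between 0.0568 and 0.133. The knockout and si1SMYD3 effects differed for 5 genes, where 77.0% of all genes differed, 40.7% higher in the clone and 36.3% lower, against 2 and 3 of the 9 genes. Relative to si1SMYD3, the clone's effect was lower for IFNAR2 (-0.73 ± 0.10), TYK2 (-0.44 ± 0.07) and IFNGR1 (-0.28 ± 0.07), and higher for IFNGR2 (0.61 ± 0.10) and STAT2 (0.55 ± 0.08). JAK1 and STAT3 differed by 0.04 ± 0.07 and 0.04 ± 0.08, which did not pass the test (limma, adjusted p = 0.656 and 0.674).

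The knockout and ASO effects differed for 7 genes, where 73.3% of all genes differed, 35.5% higher in the clone and 37.9% lower, against 4 and 3 of the 9 genes. STAT3 again had the widest gap, with the clone 1.03 ± 0.09 above the ASO (limma, adjusted p = 2.78e-11). JAK1 (0.60 ± 0.08), IFNAR1 (0.52 ± 0.10) and IFNGR1 (0.30 ± 0.08) were also higher in the clone, and IFNAR2 (-0.68 ± 0.11) and TYK2 (-0.44 ± 0.08) lower. The STAT2 difference, -0.23 ± 0.09 (adjusted p = 0.0321), rested on the scaling and on single libraries: with TMM factors it was -0.18 (adjusted p = 0.0917), and the call ended without clone replicate 2 or 3, parental replicate 2, either PBS library or ASO081 replicate 2, with adjusted p between 0.0527 and 0.113. The IFNGR1 difference was 0.16 under upper quartile scaling, where it was not called (adjusted p = 0.0621). These differences were fitted on log2(CPM + 1) over the genes in all 4 tables, scaled by library totals. They are therefore not the subtraction of the fold changes above. For each of the 9 genes, every difference that involves the knockout lay below that subtraction. For IFNAR1, fold changes of 0.64 and -0.04 stood beside a difference of 0.52. This shift makes positive differences smaller and negative ones larger in size, and its source was not tested. The log2 fold changes of IFNGR1 were 0.68 in the clone, 0.88 with si1SMYD3 and 0.24 with the ASO, and those of JAK2 0.51, 0.56 and 0.22, where the ASO call depended on the fit for both.

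**Figure D4:**
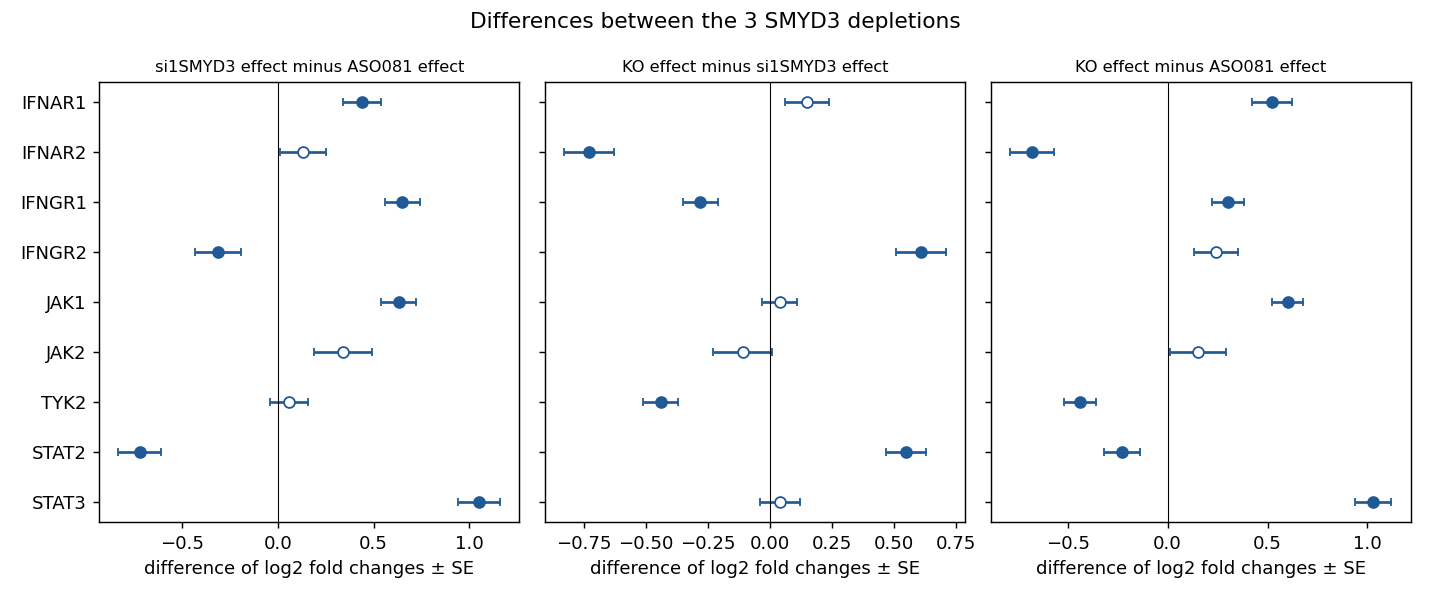
Difference between the log2 fold changes of 2 SMYD3 depletions (x axis, bars of 1 SE) for each of the 9 genes (y axis), in 3 panels for the 3 pairs, with filled points where the adjusted p is below 0.05. STAT3 stands at 1.05 and 1.03 in the panels that set si1SMYD3 and the knockout against the ASO, and near 0 between the knockout and si1SMYD3.

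Set against the UHRF1 siRNA, si1SMYD3 differed for 5 genes, the ASO for 7 and the knockout for 7, where 48.9%, 45.5% and 81.0% of all genes differed. Relative to the UHRF1 siRNA, si1SMYD3 was higher for 1 and lower for 4 of the 9 genes, where 25.1% of all genes were higher and 23.8% lower. The ASO was higher for 0 and lower for 7, where 23.8% were higher and 21.7% lower. The knockout was higher for 2 and lower for 5, where 40.3% were higher and 40.7% lower. The effect on IFNGR2 was lower with si1SMYD3, the ASO and in the clone than with the UHRF1 siRNA, with differences of -1.12 ± 0.10, -0.81 ± 0.12 and -0.55 ± 0.10. TYK2 gave -0.54 ± 0.09, -0.61 ± 0.10 and -1.05 ± 0.07 in the same order, and IFNAR2 -0.31 ± 0.10, -0.44 ± 0.12 and -1.09 ± 0.10. Of these, IFNAR2 with si1SMYD3 lost its call with no filter on low counts (adjusted p = 0.0508). The effect on IFNGR1 was higher than that of the UHRF1 siRNA with si1SMYD3, by 0.68 ± 0.08, and in the clone, by 0.32 ± 0.07. In the clone, the JAK1 difference (0.17 ± 0.07) lost its call without clone replicate 2, parental replicate 1 or 2, siNC replicate 1 or 3, or siUHRF1 replicate 2 or 3 (adjusted p between 0.0502 and 0.121), and under upper quartile scaling (0.03, adjusted p = 0.724). The JAK2 difference (-0.28 ± 0.12) lost its call without clone replicate 3, parental replicate 2 or 3, siNC replicate 1 or siUHRF1 replicate 1 (adjusted p between 0.0679 and 0.115). Without PBS replicate 1, the ASO contrast lost the calls of IFNAR2 (adjusted p = 0.107) and JAK2 (adjusted p = 0.0502). STAT3 differed from the UHRF1 effect by 0.12 ± 0.09 with si1SMYD3 (adjusted p = 0.301) and 0.10 ± 0.08 in the clone (adjusted p = 0.259), neither of which passed the test, and by -0.93 ± 0.11 with the ASO (adjusted p = 2.46e-08). In the SMYD3 depletions UHRF1 RNA itself did not move one way: it averaged 5718 ± 91.7 normalized counts in the clone against 4212 ± 26.8 in parental cells, 3.05 ± 0.566 CPM with si1SMYD3 against 9.83 ± 1.39 CPM with siNC (SD, n = 3 each), and 58.6 ± 2.03 CPM with the ASO against 45.8 ± 1.34 CPM with PBS (SD, n = 2 each).

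Levels of different genes were compared per gene length, as reads per kilobase of gene length on the CPM scale, within a group. STAT2 was the most abundant of the 9 genes and JAK2 the least in all 8 groups. In the knockout clone the order ran from STAT2 (42.4 ± 0.942) through STAT3 (36.2 ± 0.388), JAK1 (25.9 ± 1.41), IFNGR2 (14.9 ± 1.22), IFNGR1 (12.9 ± 0.302), TYK2 (7.49 ± 0.221), IFNAR1 (6.37 ± 0.356) and IFNAR2 (3.25 ± 0.225) to JAK2 (2.19 ± 0.193). In parental cells it ran from STAT2 (28.45 ± 2.21) through STAT3 (18.5 ± 0.113), JAK1 (15.3 ± 0.556), TYK2 (9.91 ± 0.208), IFNGR2 (9.53 ± 0.184), IFNGR1 (8.20 ± 0.0871), IFNAR2 (5.48 ± 0.199) and IFNAR1 (4.17 ± 0.107) to JAK2 (1.56 ± 0.0909), with SD over 3 libraries throughout. No neighbours in either order overlapped. TYK2 stood below both interferon-γ receptor genes in the clone and above both in parental cells, and IFNAR1 and IFNAR2 changed places.

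With si1SMYD3 the neighbours JAK1 (57.7 ± 2.68) and IFNGR1 (53.2 ± 2.06) overlapped, as did TYK2 (12.7 ± 0.871) and IFNAR1 (11.5 ± 0.396). With siNC in that table, JAK1 (36.1 ± 0.841) and IFNGR2 (35.6 ± 1.19) overlapped, and STAT3 was at 76.3 ± 5.10 with si1SMYD3, against 41.5 ± 3.44 with siNC. In the ASO table the order was the same in both groups and no neighbours overlapped, with STAT2 at 79.7 ± 2.66 with the ASO and 49.2 ± 0.0239 with PBS, and STAT3 next at 37.1 ± 1.53 and 41.8 ± 1.28 (SD, n = 2 each). In the UHRF1 table IFNGR1 came next after STAT2, at 54.6 ± 1.60 with the UHRF1 siRNA and 47.3 ± 0.817 with siNC. There IFNGR2 was at 20.3 ± 1.94 with the UHRF1 siRNA, above TYK2 at 16.1 ± 0.454, and at 9.53 ± 0.979 with siNC, where it overlapped TYK2 at 11.01 ± 0.565 and IFNAR1 at 9.50 ± 0.417. Lengths are those deposited in the ASO and UHRF1 tables. With the longest coding transcript in their place, JAK1 and IFNGR2 swapped with siNC in the si1SMYD3 table, as did IFNGR1 and STAT3 with the UHRF1 siRNA and JAK1 and STAT3 with its siNC, and STAT2 stayed at the top and JAK2 at the bottom.

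**Figure D5:**
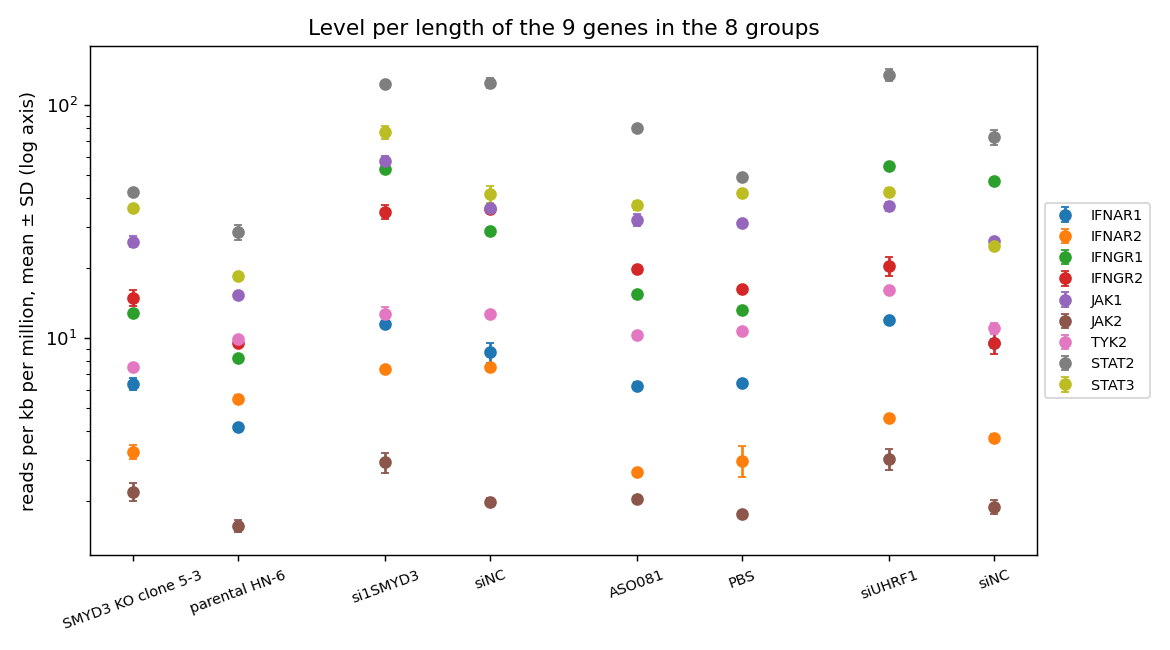
Level per length of the 9 genes (y axis, reads per kilobase on the CPM scale, log axis, mean with bars of 1 SD) in the 8 groups (x axis), depleted cells left of their control. STAT2 is at the top and JAK2 at the bottom in each group, and levels in different tables are not on a common scale.

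Across the 22 libraries, after each table was centred on the mean of its 2 groups, the 9 genes fell into patterns that the list of names did not impose. JAK1 and STAT3 followed each other most closely (Pearson r = 0.979 on log2(CPM + 1)), and IFNAR1 followed STAT3 (0.941) and JAK1 (0.934). IFNAR2 and TYK2 followed each other (0.858) and ran against IFNAR1 (-0.597 and -0.305). Called changes in opposite directions were seen only in the clone. With the UHRF1 siRNA all 3 genes rose, with log2 fold changes of 0.33 for IFNAR1, 0.27 for IFNAR2 and 0.55 for TYK2. STAT2 was closest to IFNGR2 (0.872). Among 9764 genes with a mean of at least 5 CPM in every table, the 2 most alike to each gene were AP3B1 and STAT3 for JAK1 (0.979 each), ZFYVE26 and KCTD10 for STAT3 (0.985 and 0.981), C12orf49 and WDR44 for IFNAR1 (0.968 and 0.959), ZBTB18 and RNF135 for IFNAR2 (0.977 and 0.976), and RGL2 and OBSL1 for TYK2 (0.985 and 0.983). For the others they were LIPA and NT5C2 for IFNGR1 (0.984 and 0.968), MARCKSL1 and VIPAS39 for IFNGR2 (0.951 and 0.950), RPS6KC1 and FASTKD5 for JAK2 (0.947 and 0.936), and APOL2 and BAZ1A for STAT2 (0.948 and 0.945). These values describe 22 points that share treatment groups.

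The remaining genes of the pathway were counted from lists, beginning upstream. Beside each count stand the shares of all genes called, 42.1% higher and 42.5% lower in the clone, 24.2% and 24.4% with si1SMYD3, 11.3% and 10.3% with the ASO, and 32.0% and 32.7% with the UHRF1 siRNA. Of 21 interferon ligand genes, 2 had a line in the knockout table and 21 in the others, and few reads were counted. Together they held 18 to 48 reads per library in the knockout table, 50 to 90 in the si1SMYD3 table, 16 to 53 in the ASO table and 42 to 109 in the UHRF1 table. Of the few that could be tested, IFNL1, an interferon-λ gene, rose with the ASO (2.77 ± 0.61, edgeR, adjusted p = 0.00669), IFNE fell in the clone (-0.83 ± 0.29, limma, adjusted p = 0.0158) and rose with the UHRF1 siRNA (1.85 ± 0.57, edgeR, adjusted p = 0.00402), and IFNL3 rose with si1SMYD3 (1.07 ± 0.32, edgeR, adjusted p = 0.0120) and fell with the UHRF1 siRNA (-1.46 ± 0.56, edgeR, adjusted p = 0.0195). The call of IFNL1 ended without ASO081 replicate 1, that of IFNE in the clone without clone replicate 1 or parental replicate 2, and that of IFNL3 without si1SMYD3 replicate 3 or its siNC replicate 2, and without siUHRF1 replicate 1 or its siNC replicate 1. Among 7 other receptor, kinase and STAT genes, 2 were higher and 5 lower in the clone, 0 and 2 with si1SMYD3, 1 and 2 with the ASO, and 4 and 0 with the UHRF1 siRNA. JAK3, the kinase of common gamma chain cytokine receptors, fell in all 3 SMYD3 depletions (-2.85 ± 0.24, -0.62 ± 0.10 and -0.49 ± 0.11) and rose with the UHRF1 siRNA (1.15 ± 0.19). STAT5A rose with the UHRF1 siRNA (1.64 ± 0.07) and in the clone (0.59 ± 0.13). Without PBS replicate 1, the JAK3 call with the ASO ended and 1 gene of this list was lower.

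Receptors for other cytokines that use the same kinases were higher for 11 and lower for 4 of 18 tested in the clone, 10 and 2 of 21 with si1SMYD3, 4 and 3 of 17 with the ASO, and 6 and 8 of 20 with the UHRF1 siRNA, where 32.0% and 32.7% of all genes were called, so the last count of higher genes was about the background. IL7R, the interleukin-7 receptor, rose in the clone (3.08 ± 0.06), with si1SMYD3 (1.05 ± 0.11) and with the ASO (0.35 ± 0.10) and fell with the UHRF1 siRNA (-1.08 ± 0.08). IL6R, which pairs with IL6ST to activate STAT3, rose with si1SMYD3 (1.34 ± 0.11) and in the clone (1.17 ± 0.12) and fell with the UHRF1 siRNA (-0.30 ± 0.06). Other receptors fell. IL11RA was lower in the clone (-2.92 ± 0.13) and with the UHRF1 siRNA (-0.99 ± 0.15). IL27RA was lower with si1SMYD3 (-0.85 ± 0.10) but higher in the clone (2.16 ± 0.07) and with the UHRF1 siRNA (0.17 ± 0.06). LEPR was lower with the ASO (-0.53 ± 0.12) and in the clone (-0.57 ± 0.12) and higher with si1SMYD3 (0.26 ± 0.10). Negative regulators were higher for 10 and lower for 7 of 19 in the clone, 8 and 3 of 20 with si1SMYD3, 5 and 3 of 20 with the ASO, and 10 and 5 of 19 with the UHRF1 siRNA. In the clone 42.1% of all genes were called higher and 42.5% lower, so calls in any list were common there. USP18, which binds IFNAR2 and dampens signalling and is itself interferon-induced, rose in the clone (2.56 ± 0.11), with si1SMYD3 (0.52 ± 0.09) and with the ASO (1.60 ± 0.06), and fell with the UHRF1 siRNA (-0.17 ± 0.05). SOCS1, a kinase inhibitor, rose with the ASO (1.21 ± 0.18) and with the UHRF1 siRNA (0.69 ± 0.11) and fell in the clone (-0.35 ± 0.15). SOCS3, which restrains STAT3 signalling, rose in the clone (1.29 ± 0.05), with si1SMYD3 (0.40 ± 0.09), with the ASO (0.31 ± 0.06) and with the UHRF1 siRNA (0.36 ± 0.05). PTPN6, a tyrosine phosphatase, rose with the UHRF1 siRNA (1.03 ± 0.06) and fell in the clone (-1.20 ± 0.05). The ASO counts moved with single libraries: without 1 library, 2 to 4 of these receptors were higher and 1 to 2 lower, and 3 to 5 of the negative regulators higher and 1 to 3 lower. Every 1 of the 4 libraries lowered at least 1 of these counts when left out.

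Downstream, 35 targets of ISGF3 were higher for 31 and lower for 1 in the clone, 20 and 3 with si1SMYD3, 35 and 0 with the ASO, and 33 and 0 with the UHRF1 siRNA. Their median log2 fold changes were 1.54, 0.32, 1.19 and 0.56 in that order, where those of all genes lay between -0.02 and 0.00. CXCL10, a chemokine gene, rose by 5.64 ± 0.17 in the clone, 2.54 ± 0.12 with si1SMYD3, 3.45 ± 0.10 with the ASO and 1.58 ± 0.08 with the UHRF1 siRNA, and RSAD2, an antiviral enzyme gene, by 4.85 ± 0.19, 1.28 ± 0.10, 3.11 ± 0.07 and 1.70 ± 0.05. STAT2 rose in the 3 comparisons in which the targets had the higher medians and did not pass the test with si1SMYD3, which had the lowest. Among those 3 the sizes ran the other way. STAT2 changed by 0.60 in the clone, where the target median was 1.54. It changed by 0.70 with the ASO, where the median was 1.19, and by 0.89 with the UHRF1 siRNA, where it was 0.56. A relation between them was not tested. Of 19 tested STAT3 targets, 11 were higher and 8 lower in the clone, 11 and 3 with si1SMYD3, 5 and 1 with the ASO, and 11 and 8 with the UHRF1 siRNA. The ASO counts moved when single libraries were left out. Of all genes, 42.1% were called higher and 42.5% lower in the clone, so calls in any list were common there. With the UHRF1 siRNA those shares were 32.0% and 32.7%. The lists were not tested as sets. CCND1, the gene of cyclin D1, rose in the clone (2.02 ± 0.03) and fell with si1SMYD3 (-1.64 ± 0.08) and with the UHRF1 siRNA (-0.71 ± 0.05), and CEBPD, a transcription factor gene, fell in the clone (-1.65 ± 0.14) and rose with si1SMYD3 (1.33 ± 0.13) and with the UHRF1 siRNA (0.75 ± 0.10). ICAM1, an adhesion molecule gene, rose in the clone (1.64 ± 0.07), with si1SMYD3 (1.20 ± 0.13) and with the UHRF1 siRNA (0.91 ± 0.05).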

How the data were processed

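RNA-seq of 22 HN-6 libraries was read from 4 tables that the authors deposited separately. Bowtie, bcl2fastq and hg38 are named, with no role or version, per the submitters' processing notes. The counter, its annotation and its strand setting are not given in any source used here. The si1SMYD3, ASO and UHRF1 tables hold raw counts per gene as deposited. In the si1SMYD3 table, 23588 lines carry no gene symbol and hold 0.849% to 0.917% of reads. The knockout table holds a deposited signal, gene counts divided by 1 factor per library by the authors. Dividing by that step gave whole reads for 100% of its values (tolerance 0.01).

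Count tables were tested with edgeR 4.0.16 (robust quasi-likelihood, filterByExpr, TMM factors) in R 4.3.3, and the knockout table with limma 3.58.1 (trend and robust) on log2(value + 1), which understates changes of low genes, for genes that reached 10 in 3 libraries or more. On the recovered reads, edgeR called 7010 genes higher and 7470 lower, against 7136 and 7210. Differences between effects used edgeR over 16 count libraries or, with the knockout, limma over 22 libraries on log2(CPM + 1). Printed CPM of single genes were computed here from the counts with TMM factors, and the knockout values of single genes are printed as deposited. Marker sums are CPM by library total, without TMM factors. In the knockout table, marker sums and levels per length come from the recovered reads. Tests were two-sided with Benjamini-Hochberg adjustment over all genes tested. The replicates are called biological by the study, and the p-values measure the spread between these libraries, within 1 clone, siRNA or ASO. The fits were tested on simulated data with known changes. Recovery of a log2 change of 0.5 was 44.23% of genes with the ASO and 65.26% in the clone. With si1SMYD3 it was 75%, and with the UHRF1 siRNA 81.13%. A difference of 0.5 between effects was recovered for 6.25% to 21.88% of genes, and a difference of 1 for at least 90.38%. The ASO minus UHRF1 contrast was not simulated. A gene not called may therefore still differ by about 0.5. The alternatives were other scalings, filters, pseudocounts, DESeq2 1.42.0, a replicate block and leaving out each library.

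The 9 genes and all gene lists were chosen with earlier results of these data known. From each list, at most the 3 called genes with the largest absolute change in a comparison are named, with their other called values for those described, and for each of the 9 genes the 2 with the highest Pearson r. SMYD3 and UHRF1 check the labels. IL10RB, TMEM50B, RAVER2 and AP000295.1 are named because they overlap or adjoin these genes.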

Additional observations from a re-analysis of the deposited data

Results flagged for a closer look

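The effects of the 3 ways of depleting SMYD3 were compared by a test of the difference between log2 fold changes, adjusted over all genes. They differed for 6 of the 9 genes between si1SMYD3 and the ASO, 5 between the knockout and si1SMYD3 and 7 between the knockout and the ASO, where 32.0%, 77.0% and 73.3% of all genes differed. With the effect of si1SMYD3 minus that of the ASO, the difference was 1.05 for STAT3, 0.65 for IFNGR1, 0.63 for JAK1, 0.44 for IFNAR1, -0.31 for IFNGR2 and -0.72 for STAT2. For the knockout minus si1SMYD3 it was 0.61 for IFNGR2, 0.55 for STAT2, -0.28 for IFNGR1, -0.44 for TYK2 and -0.73 for IFNAR2. For the knockout minus the ASO it was 1.03 for STAT3, 0.60 for JAK1, 0.52 for IFNAR1, 0.30 for IFNGR1, -0.23 for STAT2, -0.44 for TYK2 and -0.68 for IFNAR2. JAK2 was called in none of the 3 pairs, with differences of 0.34, -0.11 and 0.15 in the same order (adjusted p = 0.0856, 0.397 and 0.338). Simulated differences of 0.5 were recovered for 6.25%, 20.83% and 9.375% of genes in these contrasts. Those simulations changed few genes at a fixed spread, so the shares do not carry over to JAK2. The missing calls do not show that its effects were equal. Between si1SMYD3 and the ASO, reagent, control and table differ together, and between the knockout and either of them clone and duration of depletion do too, and these cannot be told apart.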

How the results depend on the processing

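Sizes in the knockout comparison moved under upper quartile scaling. All 99 alternative values of the 9 genes in the knockout comparison and all 108 in the UHRF1 comparison kept direction and call. With si1SMYD3 98 did and 10 changed sign, none of them a called gene: TYK2 (0.00) was -0.04 with upper quartile factors, -0.13 with library totals only, -0.01 with no filter and -0.001 with a replicate block, and leaving out 1 library gave -0.03 to 0.07 for TYK2, -0.06 to 0.03 for STAT2 and -0.07 to 0.04 for IFNGR2. With the ASO 78 were the same, 6 gained a call, 2 lost one and 4 changed sign: JAK1 was -0.02 with library totals only and -0.02 to 0.11 without 1 library, IFNAR2 -0.30 to 0.0006 and IFNAR1 -0.07 to 0.002. Leaving out an ASO or PBS library leaves 1 sample in a group, assumed to vary like the other group.

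For the ASO, 2068 genes were higher and 1880 lower, against 1338 and 2999 with library totals only, 1378 and 1055 with DESeq2, 3477 and 3296 with a replicate block, and 1426 to 2204 and 1296 to 1914 without 1 library. Of the 9 genes, 1 was called lower, STAT3, with upper quartile factors, library totals only, no filter and a replicate block, and 0 to 1 without 1 library. Without 1 library, 2 to 3 of the 9 were higher with the ASO.

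Among differences, signs changed for IFNGR1 in the ASO minus UHRF1 contrast (-0.01, upper quartile factors), for JAK1 (-0.11) and STAT3 (-0.10) in the knockout minus si1SMYD3 contrast and STAT3 (-0.04) in the knockout minus UHRF1 contrast under upper quartile scaling. Without 1 library, the ranges were -0.003 to 0.06 and -0.03 to 0.11 for JAK1 and STAT3 in the knockout minus si1SMYD3 contrast, and -0.03 to 0.28 for IFNAR2 in the si1SMYD3 minus ASO contrast. Of the 9 genes, 1 to 2 were lower in the si1SMYD3 minus ASO contrast, and 1 to 2 were higher in the si1SMYD3 minus UHRF1 contrast and the knockout minus UHRF1 contrast, the last 1 under upper quartile scaling. The cause was not tested. Library totals only, and TMM factors for the knockout contrasts, were chosen after seeing the data.

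No label states that same-numbered libraries were paired. With si1SMYD3 and with the ASO, library codes in the titles alternate between control and depleted cells by replicate number, but what the codes mean is not stated. The deviations of same-numbered libraries correlated at -0.04 to 0.28 (knockout), -0.119 to 0.396 (si1SMYD3), -0.087 to 0.08 (UHRF1) and 0.422 (ASO, 2 pairs only). Each depleted library correlated best with its own number in 2 of 3, 1 of 3 and 1 of 3 cases in the first 3 of these comparisons. With the ASO it did in 2 of 2. There, 2 libraries per group deviate from their mean by equal and opposite amounts, so both cases are 1 value and cannot show a pairing. With the replicate block, JAK2 (adjusted p = 0.0418) and STAT3 (adjusted p = 0.000175) were called with the ASO, and it changed no other call of the 9 genes.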
